A study of Mus musculus with 8 samples.

Results

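Ceramide synthesis and turnover was followed through 10 genes, chosen by name, of the 46517 genes in a liver RNA-Seq count table. They encode both main subunits of serine palmitoyltransferase (Sptlc1 and Sptlc2), 4 ceramide synthases (Cers2, Cers4, Cers5 and Cers6), the dihydroceramide desaturase Degs1, the acid sphingomyelinase Smpd1, the acid ceramidase Asah1 and the sphingomyelin synthase Sgms1. The livers came from male C57BL/6 mice that received a NASH-inducing diet for 25 weeks from an age of 6 weeks and were 31 weeks old when tissue was taken after a 16-h fast. MøFoxO1-KO mice (n = 4, replicates 26 to 29) carried FoxO1 loxP/loxP alleles and Lyz2-Cre, in which Cre is made from the promoter of lysozyme 2, a gene of myeloid cells. WT littermates (n = 4, replicates 22 to 25) carried the same FoxO1 loxP/loxP alleles without Cre, so the floxed alleles and the diet were common to both groups and no liver on regular chow was analysed here. All 10 genes passed the filter on low counts and were tested.

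Ceramide is the hub of sphingolipid metabolism. De novo synthesis starts on the endoplasmic reticulum, where serine palmitoyltransferase joins serine to palmitoyl-CoA and the ketone product is reduced by Kdsr. Ceramide synthases then attach a fatty acid, each enzyme with its own preferred chain length, and the desaturase completes ceramide. Ceramide also returns from sphingomyelin through sphingomyelinases, and it is used up by ceramidases, by sphingomyelin synthases and by enzymes that add sugars. In liver, Cers2 makes the very-long-chain ceramides and Cers6 makes palmitoyl ceramide, a species linked to insulin resistance.

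Whole liver was sequenced, so for every gene below fewer cells of a type and less RNA per cell cannot be told apart. Total counts lay between 15253218 and 18025481 per mouse. Counts of Alb, the hepatocyte marker albumin, were 4.16 to 6.80% of the effective library size in WT livers and 4.70 to 6.88% in MøFoxO1-KO livers. The effective size is the library size times its scaling factor, so these are not shares of all counts of a liver. A normalized count is a count scaled to a library of common effective size. The targeted gene was read in whole liver, of which myeloid cells are a part. Foxo1 had 394, 458, 302 and 458 normalized counts in WT replicates 22, 23, 24 and 25 and 429, 302, 415 and 289 in MøFoxO1-KO replicates 26, 27, 28 and 29, an order used for all lists of values here. The groups overlapped, with a log2 fold change of -0.17 (SE 0.18, edgeR quasi-likelihood test with Benjamini-Hochberg adjustment, adjusted P = 0.686). WT replicate 23 stood apart. It had the lowest summed endothelial markers of all livers (1529.7 normalized counts against 2669.9 to 3979 in the other 7). Members for which it was the highest or lowest liver are given with and without it.

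The promoters of 4 members are shown because 3 of these genes (Cers6, Sptlc1 and Sptlc2) had values in MøFoxO1-KO livers that lay wholly below those of WT livers, and the fourth (Cers5) belongs to the same enzyme family as Cers6 and had overlapping values. The sequences are those of RefSeq on GRCm38.p6, from 250 bases before to 50 bases after the start of the transcript, written 5′ to 3′ on the strand of the gene. Capitals mark CACGTG (the E-box) and CCAAT or its reverse complement (the CCAAT box), and these letters were chosen after the values were known.
Cers6 (chr2:68861191-68861490, plus strand): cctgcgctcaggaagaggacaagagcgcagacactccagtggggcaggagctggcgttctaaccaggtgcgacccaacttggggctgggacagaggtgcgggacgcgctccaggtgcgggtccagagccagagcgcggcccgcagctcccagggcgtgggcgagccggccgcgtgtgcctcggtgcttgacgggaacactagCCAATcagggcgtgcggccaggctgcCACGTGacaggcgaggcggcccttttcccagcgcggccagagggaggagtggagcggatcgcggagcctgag
Sptlc1 (chr13:53377312-53377611, minus strand): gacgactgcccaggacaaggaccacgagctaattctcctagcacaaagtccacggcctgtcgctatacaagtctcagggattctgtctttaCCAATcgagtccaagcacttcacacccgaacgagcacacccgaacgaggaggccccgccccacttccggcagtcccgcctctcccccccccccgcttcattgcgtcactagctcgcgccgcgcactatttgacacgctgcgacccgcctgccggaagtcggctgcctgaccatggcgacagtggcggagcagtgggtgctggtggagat
Sptlc2 (chr12:87388306-87388605, minus strand): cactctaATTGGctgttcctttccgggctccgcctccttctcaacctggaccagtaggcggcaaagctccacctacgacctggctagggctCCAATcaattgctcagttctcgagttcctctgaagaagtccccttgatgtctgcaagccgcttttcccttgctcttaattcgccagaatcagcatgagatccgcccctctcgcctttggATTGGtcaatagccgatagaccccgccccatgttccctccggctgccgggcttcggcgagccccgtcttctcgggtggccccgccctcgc
Cers5 (chr15:99772466-99772765, minus strand): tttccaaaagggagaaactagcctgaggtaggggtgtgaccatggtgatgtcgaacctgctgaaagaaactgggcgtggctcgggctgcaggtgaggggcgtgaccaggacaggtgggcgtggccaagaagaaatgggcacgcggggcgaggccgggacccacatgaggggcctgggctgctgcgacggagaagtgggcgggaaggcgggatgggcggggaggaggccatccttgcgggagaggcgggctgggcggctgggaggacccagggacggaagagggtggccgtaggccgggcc

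The Cers6 promoter held a CCAAT box 48 bases and a CACGTG 22 bases before the start. Sptlc1 held a CCAAT box 159 bases before its start. Sptlc2 held 3 of them, at 243, 159 and 40 bases. The Cers5 promoter held neither motif. Entries were given for 9 members, with 13 promoters in all, and none for Asah1. Searched on both strands, CCAAT was found in 6 of the 13 member promoters (1 each of Cers2, Cers6, Sgms1, Smpd1, Sptlc1 and Sptlc2) and in 37.4% of all 32851 promoters of the same length. CACGTG was found in 3 of the 13 (1 each of Cers2, Cers6 and Degs1) and in 7.15% of all promoters. The forkhead sequence GTAAACA was found in 0 of the 13 and in 3.65% of all promoters. No match of one motif overlapped a match of another in the members. A match is a description of the letters, and the absence of a match says only that these letters are not in these windows.

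Serine palmitoyltransferase commits serine and palmitoyl-CoA to sphingolipids, and both of its main subunits had lower values in MøFoxO1-KO livers. Sptlc1, the subunit without the cofactor, lies on chromosome 13 from 53332716 to 53377365 (GRCm38). It had 537, 609, 469 and 481 normalized counts in WT livers and 406, 389, 408 and 419 in MøFoxO1-KO livers. Each of the 4 MøFoxO1-KO values lay below the lowest WT value. The means were 524 ± 64.2 (SD, n = 4) and 405 ± 12.6 (SD, n = 4), 1.29-fold lower. Sptlc2, the catalytic subunit on chromosome 12 from 87305058 to 87388355, had 459.9, 468, 387 and 378 normalized counts in WT livers and 339, 339.7, 301 and 321 in MøFoxO1-KO livers. Again no MøFoxO1-KO liver reached the lowest WT liver. The means were 423 ± 47.5 and 325 ± 18.2 (SD, n = 4 each), 1.3-fold lower.

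The log2 fold changes of the pair were -0.37 (SE 0.11) for Sptlc1 and -0.38 (SE 0.12) for Sptlc2. Their unadjusted P values were 0.00800 and 0.00805, and neither passed after adjustment over all 13278 tested genes (edgeR, Benjamini-Hochberg adjusted P = 0.169 for both). The exact permutation test gave the smallest two-sided P that 4 against 4 allow (0.0286) for each. Groups without overlap always give this value, so it adds nothing to that separation. Of all tested genes, 4.71% had groups without overlap and MøFoxO1-KO below. Within a mouse the ratio of the subunits moved little. Per kilobase of exon, Sptlc1 exceeded Sptlc2 by 3.63, 4.05, 3.77 and 3.97 times in WT livers and by 3.73, 3.56, 4.22 and 4.07 times in MøFoxO1-KO livers, so the ranges overlapped. Without WT replicate 23, which had the highest value of both genes, the log2 fold changes were -0.29 and -0.33, with unadjusted P of 0.0155 and 0.0173 (edgeR).

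The other tested subunits and regulators of the enzyme had estimates on both sides of 0. Sptssa, a small activating subunit, had a log2 fold change of 0.18 (SE 0.15). Ormdl3, an inhibitory subunit and the gene of highest level per length on the list, had one of -0.17 (SE 0.14), and Ormdl1 one of 0.34 (SE 0.20). The alternative subunit Sptlc3 and the small subunit Sptssb were too low to be tested. Of 8 genes on the list 6 were tested, 2 with higher and 4 with lower estimates, and Sptlc1 and Sptlc2 were the 2 with an unadjusted P under 0.05.

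The next enzyme of the de novo route, the ketosphinganine reductase Kdsr, had 774, 838, 599 and 699 normalized counts in WT livers and 491, 628, 501 and 598 in MøFoxO1-KO livers. Most MøFoxO1-KO livers had lower values, but MøFoxO1-KO replicate 27 overlapped the lowest WT liver. Its log2 fold change was -0.39 (SE 0.14, edgeR, Benjamini-Hochberg adjusted P = 0.208). Degs1, the desaturase that forms ceramide from dihydroceramide, lies on chromosome 1 from 182275772 to 182282804 and stood near equality. It had 1038, 1174, 1144 and 1099 normalized counts in WT livers and 1139, 1282, 879.8 and 1164 in MøFoxO1-KO livers, with MøFoxO1-KO replicate 28 the lowest and replicate 27 the highest of all 8. This gave a log2 fold change of 0.00 (SE 0.13, edgeR, adjusted P = 0.993). Per kilobase of exon, Degs1 exceeded Sptlc1 by 1.94, 1.94, 2.45 and 2.30 times in WT livers and by 2.83, 3.32, 2.17 and 2.79 times in MøFoxO1-KO livers, with overlapping ranges.

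**Figure D1:**
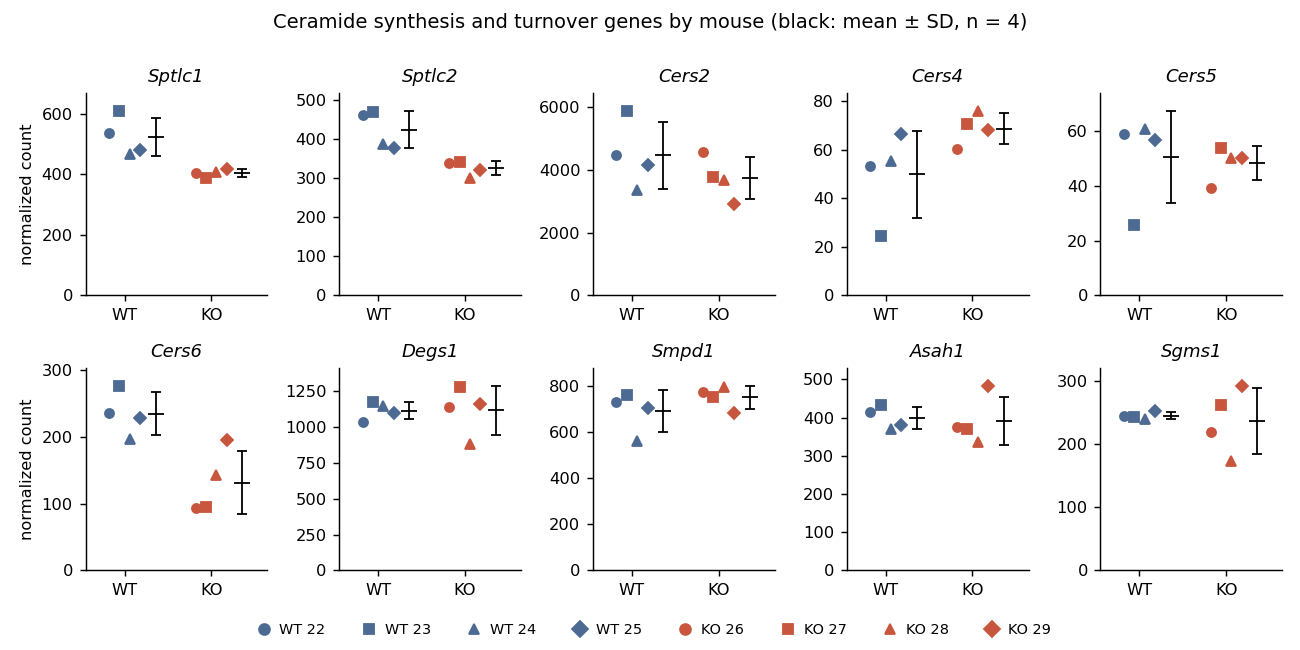
Normalized counts (y axis, from 0) of the 10 ceramide genes in each WT (blue) and MøFoxO1-KO (KO, red) liver, with the marker shape giving the replicate and the black bar the mean ± SD (n = 4). The 4 KO values lie wholly below the 4 WT values for Sptlc1, Sptlc2 and Cers6, and WT replicate 23 is the lowest for Cers4 and Cers5 and the highest for Cers2, Cers6, Sptlc1 and Sptlc2.

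Among the ceramide synthases, Cers6 had the lowest values in MøFoxO1-KO livers relative to WT and Cers4 the highest estimate in the other direction. Cers6 lies on chromosome 2 from 68861441 to 69114282. It had 236, 276, 197 and 228 normalized counts in WT livers and 93.7, 95.3, 142 and 194 in MøFoxO1-KO livers. The groups did not overlap, although MøFoxO1-KO replicate 29 came within a few counts of WT replicate 24, and MøFoxO1-KO replicates 26 and 27 were the lowest. The means were 234 ± 32.3 and 131 ± 47.6 (SD, n = 4 each), 1.78-fold lower in MøFoxO1-KO livers. The log2 fold change was -0.83 (SE 0.24), and 3.10% of all tested genes had a lower one. The unadjusted P was 0.00569 and the adjusted P 0.150 (edgeR, Benjamini-Hochberg), so Cers6 did not pass over all genes. With DESeq2 it did, at an adjusted P of 0.0399. Without WT replicate 23, its highest liver, the log2 fold change was -0.75 (edgeR, unadjusted P = 0.0156). The study named Cers6 on these same samples, so these values are not independent evidence of its direction. The study also reported lower Cers6 in liver by real-time qRT-PCR. It listed Cers6 among genes selected by a log2 fold change over 1.5 and an adjusted P under 0.05. The size of the log2 fold change here did not reach that limit with edgeR or with DESeq2 (-0.83 with each).

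The other 3 expressed ceramide synthases overlapped between groups. Cers2, on chromosome 3 from 95314791 to 95323599, had 4489, 5882, 3351 and 4152 normalized counts in WT livers and 4568, 3783, 3694 and 2928 in MøFoxO1-KO livers. WT replicate 23 was the highest and MøFoxO1-KO replicate 29 the lowest. Its log2 fold change was -0.26 (SE 0.19, edgeR, adjusted P = 0.546), and -0.09 without WT replicate 23. Exons of Cers2 overlap those of Setdb1 by 75 bases on the opposite strand, and reads of the pair cannot be separated there without strand.

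Cers4, on chromosome 8 from 4493026 to 4531680, makes long-chain ceramides. It had 53.3, 24.5, 55.3 and 66.6 normalized counts in WT livers and 60.3, 70.3, 75.8 and 68.1 in MøFoxO1-KO livers. WT replicate 23 was the lowest of all 8, and WT replicate 25 lay within the range of the MøFoxO1-KO livers. The log2 fold change was 0.46 (SE 0.29, edgeR, adjusted P = 0.467) with all livers and 0.23 without that replicate. Cers5, on chromosome 15 from 99734881 to 99772885, is the closest relative of Cers6 and also makes palmitoyl ceramide. It had 58.9, 25.5, 60.8 and 56.6 normalized counts in WT livers and 39.2, 53.6, 50.2 and 50.3 in MøFoxO1-KO livers. Here too WT replicate 23 was the lowest, while the other 3 WT livers lay above all MøFoxO1-KO livers. The log2 fold change was -0.06 (SE 0.30, edgeR, adjusted P = 0.936) with all livers and -0.28 (adjusted P = 0.619) without that replicate. The remaining synthases were near the floor. Cers1 had at most 2.80 and Cers3 at most 0.993 normalized counts in any liver, and neither was tested.

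Levels of different genes were compared per kilobase of exon. By this measure Cers2 made up 96.3 ± 0.913% of ceramide synthase transcripts in WT livers and 96.6 ± 1.20% in MøFoxO1-KO livers (SD, n = 4 each). Cers6 made up 2.09, 1.89, 2.32 and 2.19% in WT livers and 0.832, 1.01, 1.54 and 2.61% in MøFoxO1-KO livers. The share was lower than in any WT liver in MøFoxO1-KO replicates 26, 27 and 28 and higher than in any WT liver in replicate 29, where Cers2 was lowest. Cers5 held 1.23 ± 0.568% and 1.34 ± 0.342%, and Cers4 held 0.349 ± 0.162% and 0.546 ± 0.117%. Per kilobase, Cers2 exceeded Cers6 by 46.0, 51.5, 41.1 and 43.9 times in WT livers and by 118, 95.8, 62.8 and 36.4 times in MøFoxO1-KO livers. The shares depended on the division by exon length. From counts without it, Cers2 held 92.8% in WT and 93.5% in MøFoxO1-KO livers, and Cers6 held 4.94% and 3.48% (means). Cers5 then held 1.1% and 1.2%, and Cers4 held 1.1% and 1.8%. The order of Cers4 and Cers5 in MøFoxO1-KO livers was thus reversed. These shares are descriptions of transcripts and say nothing of enzyme amounts.

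**Figure D2:**
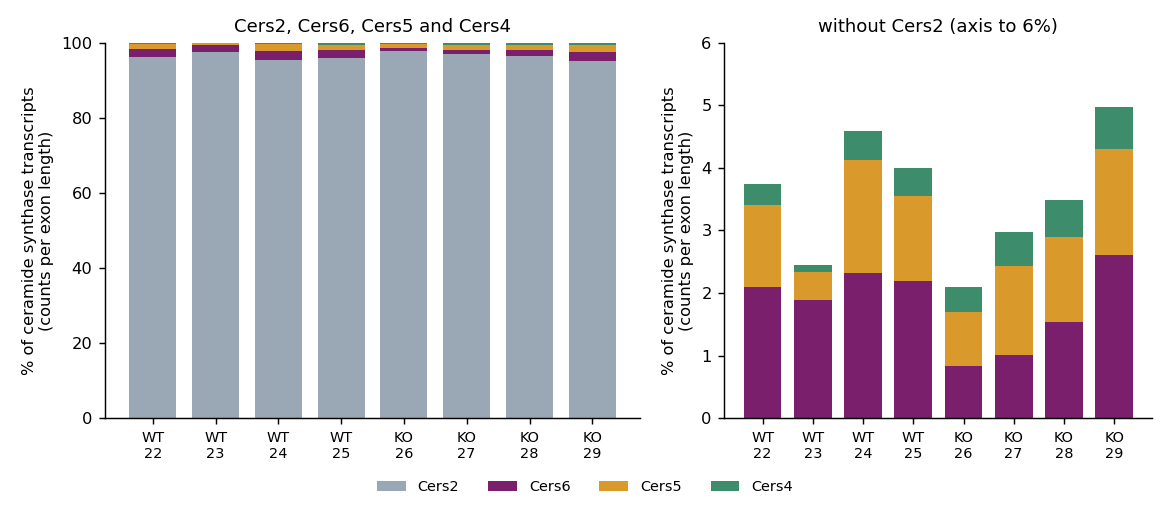
Share of each ceramide synthase in the summed ceramide synthase transcripts of a liver (y axis, percent, counts per exon length), 1 bar per mouse, with all 4 expressed synthases at left and without Cers2, on an axis to 6%, at right. Cers2 holds most of every bar, and the Cers6 part is smallest in KO replicates 26 and 27 (0.832% and 1.01%) and largest in KO replicate 29 (2.61%).

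The genes that release, consume or convert ceramide overlapped between groups. Smpd1, the lysosomal enzyme that frees ceramide from sphingomyelin, lies on chromosome 7 from 105554360 to 105558388. It had 732, 762, 559 and 706 normalized counts in WT livers and 774, 751, 795 and 683 in MøFoxO1-KO livers, a log2 fold change of 0.12 (SE 0.12, edgeR, adjusted P = 0.654). WT replicate 24 was the lowest of all 8. Asah1, the lysosomal enzyme that splits ceramide into sphingosine and a fatty acid, lies on chromosome 8 from 41340197 to 41374773. It had 415, 433, 370.2 and 379 normalized counts in WT livers and 375, 371, 337 and 483 in MøFoxO1-KO livers, a log2 fold change of -0.03 (SE 0.13, edgeR, adjusted P = 0.934). Sgms1, the Golgi enzyme that turns ceramide into sphingomyelin, lies on chromosome 19 from 32122727 to 32389714. It had 245, 242, 239 and 252 normalized counts in WT livers and 219, 261, 172 and 292 in MøFoxO1-KO livers, a log2 fold change of -0.05 (SE 0.16, edgeR, adjusted P = 0.897). For Asah1 and Sgms1 the MøFoxO1-KO livers enclosed the range of the WT livers, with replicate 28 lowest and replicate 29 highest.

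Relative to Asah1, Cers6 was lower in every MøFoxO1-KO liver than in every WT liver, as it was on its own. The ratios of Cers6 to Cers2 and to Cers5 overlapped between groups. Per kilobase, Asah1 exceeded Cers6 by 4.61, 4.11, 4.92 and 4.35 times in WT livers and by 10.5, 10.2, 6.21 and 6.50 times in MøFoxO1-KO livers. Smpd1 exceeded Sgms1 by 12.8, 13.4, 9.97 and 12.0 times and by 15.1, 12.3, 19.7 and 10.00 times, with overlapping ranges.

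Of the 10 members, 0 passed an adjusted P under 0.05 with edgeR, where 0.294% of all tested genes passed, and 0 passed with the added limit of an absolute log2 fold change over 1.5, where 0.188% passed. By DESeq2, 1 of 10 passed (Cers6), against 4.02% of the genes to which that tool gave an adjusted P. At an unadjusted P under 0.05, 3 of 10 had lower values in MøFoxO1-KO livers (Cers6, Sptlc1 and Sptlc2) against 8.06% of all tested genes, and 0 had higher values against 8.65%. The same 3 had groups without overlap and MøFoxO1-KO below, against 4.71% of all tested genes, and 0 had MøFoxO1-KO above, against 5.00%. The median log2 fold change was -0.06 over the members, of which 7 had a negative estimate, and -0.01 over all tested genes. The members were not chosen at random, and no test was made over them as a list.

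The mice differed from one another in which members stood out. WT replicate 23 was the highest of all 8 livers for 4 members and the lowest for 2. MøFoxO1-KO replicate 28 was the lowest for 4 members (Sptlc2, Degs1, Asah1 and Sgms1), whereas MøFoxO1-KO replicate 29 was the highest for Asah1 and Sgms1. WT replicates 22 and 25 were at neither end for any member. The spread within a group also differed by gene. The SD was 2.25% of the mean for Sgms1 in WT livers but 22% in MøFoxO1-KO livers, and for Cers6 13.8% and 36.2%. The direction was opposite for Sptlc1, at 12.2% in WT and 3.1% in MøFoxO1-KO livers. Differences in spread were not tested.

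By level per kilobase (RPKM computed from the counts, mean over 8 livers), Cers2 was the most abundant member at 68.2 (range 48.6 to 97.7). Degs1 followed at 26.3, Smpd1 at 18.2, Sptlc1 at 10.9 and Asah1 at 7.12. The catalytic subunit Sptlc2 stood at 2.82, Sgms1 at 1.43, Cers6 at 1.26, Cers5 at 0.852 and Cers4 at 0.295. The ranges of Smpd1 and Sptlc1 overlapped, but Smpd1 was higher in all 8 livers. Sgms1 was above Cers6 in 5 of 8 livers and Cers6 above Cers5 in 6 of 8, so the order of these neighbours was not the same in every liver. All other neighbours had separate ranges.

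The genes whose pattern over the 8 mice came closest to that of Cers6 were found by the root mean square distance in log2 CPM, each gene centred on its own mean. Over 13268 tested genes other than the members the median distance was 0.616. The 5 nearest were Rtn4 (0.170), Arhgap19 (0.198), Cdkn2c (0.210), Cc2d2a (0.226) and Fam83g (0.228). Rtn4, the reticulon that shapes tubules of the endoplasmic reticulum, had 1899, 2727, 1913 and 1655 normalized counts in WT livers and 741, 864, 1313 and 1405 in MøFoxO1-KO livers. Cdkn2c, an inhibitor of cyclin-dependent kinases, had 143, 152, 179 and 157 and 55.5, 64.4, 81.4 and 117. In both, as in Cers6, MøFoxO1-KO replicates 26 and 27 were the lowest of all livers. Among the members, Sptlc1 (0.386) and Sptlc2 (0.431) were nearest to Cers6, and Cers4 (0.891) was farthest. The 5 genes were picked for this likeness, so it is a description.

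**Figure D3:**
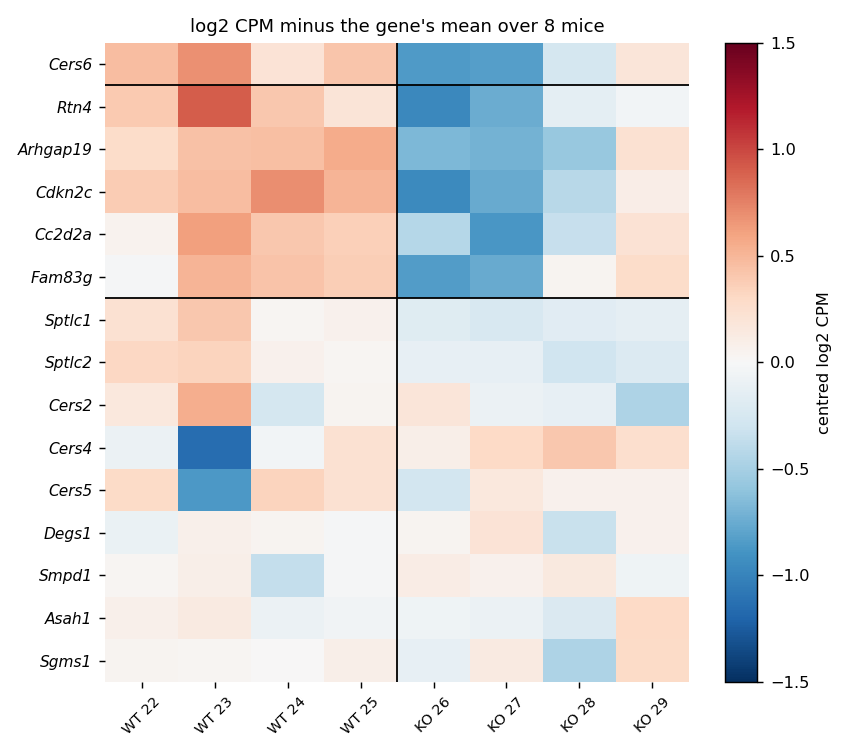
Centred log2 CPM (colour, red above and blue below the gene's mean over 8 mice) of Cers6, of the 5 tested genes nearest to it and of the other 9 members (rows) in each mouse (columns, WT left and KO right of the line). Cers6 and its nearest genes are lowest in KO replicates 26 and 27, and Cers4 and Cers5 are low in WT replicate 23.

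Of 62 genes on lists that cover sphingolipid metabolism by role (the members included), 52 were tested, 20 with higher and 32 with lower estimates in MøFoxO1-KO livers. The median log2 fold change was -0.07, against -0.01 over all tested genes. Only Apom passed an adjusted P under 0.05 with edgeR. At an unadjusted P under 0.05, 9 of the 52 had lower values (8.06% of all tested genes did) and 3 had higher values (8.65%). Without overlap between groups, 7 lay below (4.71% of all tested genes) and 2 above (5.00%).

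Apom, which carries sphingosine 1-phosphate in plasma lipoproteins, rose in MøFoxO1-KO livers. It had 1211, 901, 1402 and 1354 normalized counts in WT livers and 2592, 3305, 2626 and 2975 in MøFoxO1-KO livers. Each MøFoxO1-KO liver lay well above every WT liver. The means were 1217 ± 226 and 2874 ± 335 (SD, n = 4 each), 2.36-fold higher, with a log2 fold change of 1.24 (SE 0.16, edgeR, adjusted P = 0.0171). The call at an adjusted P under 0.05 held in the 8 alternatives that kept all mice (1.58e-10 with DESeq2, 0.0272 with limma-voom), but it depended on single mice. The adjusted P of Apom was 0.0570 when WT replicate 22 was left out, 0.0517 when WT replicate 25 was, and 0.0798 and 0.0510 when MøFoxO1-KO replicates 27 and 29 were (edgeR, Benjamini-Hochberg). On leaving out a mouse its log2 fold change ranged from 1.12 to 1.31, with an unadjusted P of at most 9.44e-05 (edgeR). Of the other 7 genes on its list, carriers and receptors of sphingosine 1-phosphate, 0 had an unadjusted P under 0.05 (edgeR).

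Gal3st1, the sulfotransferase that makes sulfatide, had 103, 162, 109 and 99.3 normalized counts in WT livers and 10.5, 32.2, 37.9 and 42.4 in MøFoxO1-KO livers. The groups were far apart, and MøFoxO1-KO replicate 26 was the lowest. Its log2 fold change was -1.94 (SE 0.37, edgeR, adjusted P = 0.0758), so it did not pass. It did pass with DESeq2, at an adjusted P of 4.00e-05, and with edgeR when no filter on low counts was used (0.0117) or when libraries were scaled by size alone (0.0488). St3gal5, which adds sialic acid to form gangliosides and had the highest level per length on the list of glycosphingolipid synthesis, had a log2 fold change of -0.33 (SE 0.17). Ugcg, which makes glucosylceramide, had one of -0.25 (SE 0.16). Of 5 tested genes of this list 4 had lower estimates.

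Col4a3bp, the gene of the ceramide transfer protein that brings ceramide to the Golgi for sphingomyelin synthesis, had 778, 965, 685 and 688 normalized counts in WT livers and 532, 603, 675 and 522 in MøFoxO1-KO livers. The groups did not overlap, with MøFoxO1-KO replicate 28 just under the lowest WT liver. The log2 fold change was -0.42 (SE 0.14, edgeR, adjusted P = 0.201). Sgms2, the sphingomyelin synthase of the plasma membrane and the highest of its list per length, had one of -0.18 (SE 0.11), against -0.05 for Sgms1. Of the 6 genes of sphingomyelin synthesis and ceramide transfer 5 had lower estimates, and Col4a3bp was the 1 with an unadjusted P under 0.05.

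Sphk2, a kinase that makes sphingosine 1-phosphate, had 924, 1244, 1066 and 1081 normalized counts in WT livers and 829, 869, 778 and 829 in MøFoxO1-KO livers, a log2 fold change of -0.38 (SE 0.11, edgeR, adjusted P = 0.162). The groups did not overlap. Exons of Sphk2 share 491 bases with Dbp and 373 with Rpl18 on the opposite strand, and both of those genes had more counts than Sphk2. Sgpp1, the sphingosine 1-phosphate phosphatase, had the highest level per length of its list and a log2 fold change of 0.24 (SE 0.12). Sphk1 was too low to be tested. Among sphingomyelinases, the neutral enzyme Smpd2 had 595, 599, 469 and 750.0 normalized counts in WT livers and 845, 735, 664 and 788 in MøFoxO1-KO livers (log2 fold change 0.33, SE 0.15, edgeR, adjusted P = 0.297). Its exons share 905 bases with Mical1 on the opposite strand, which had 240 counts over all livers against 5416 for Smpd2. No ceramidase had an unadjusted P under 0.05, and Acer1 and the intestinal sphingomyelinase Enpp7 had 0 counts in every liver.

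Gba2, a nonlysosomal enzyme that cleaves glucosylceramide, had 150.5, 106, 141 and 159.9 normalized counts in WT livers and 243, 167, 189 and 198 in MøFoxO1-KO livers, a log2 fold change of 0.52 (SE 0.18, edgeR, adjusted P = 0.203), and its groups did not overlap. On the same list, Psap, the precursor of the saposins that assist lysosomal sphingolipid breakdown and the list's most abundant gene per length (199 RPKM), had 9970.2, 11635, 9541 and 9168 and 8108, 7318, 6851 and 8914, a log2 fold change of -0.37 (SE 0.13, edgeR, adjusted P = 0.222). Every MøFoxO1-KO liver was below every WT liver. Arsa, the sulfatide-cleaving arylsulfatase A, had 1738, 1365, 1679.9 and 1472 and 1395, 1346, 1033 and 982, a log2 fold change of -0.40 (SE 0.15, edgeR, adjusted P = 0.232), and the ranges overlapped. Exons of Gba2 share 133 bases with Creb3 and 159 with Rgp1, and those of Arsa 690 with C230037L18Rik, all on the opposite strand. Over all livers Creb3 (5719 counts) and Rgp1 (3712) had more counts than Gba2 (1354), and C230037L18Rik (189) had fewer than Arsa (11113). Of the 9 genes of glycosphingolipid breakdown listed here 6 had higher and 3 lower estimates. Of 16 other lysosomal genes 9 had higher and 7 lower estimates, with a median log2 fold change of 0.03.

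**Figure D4:**
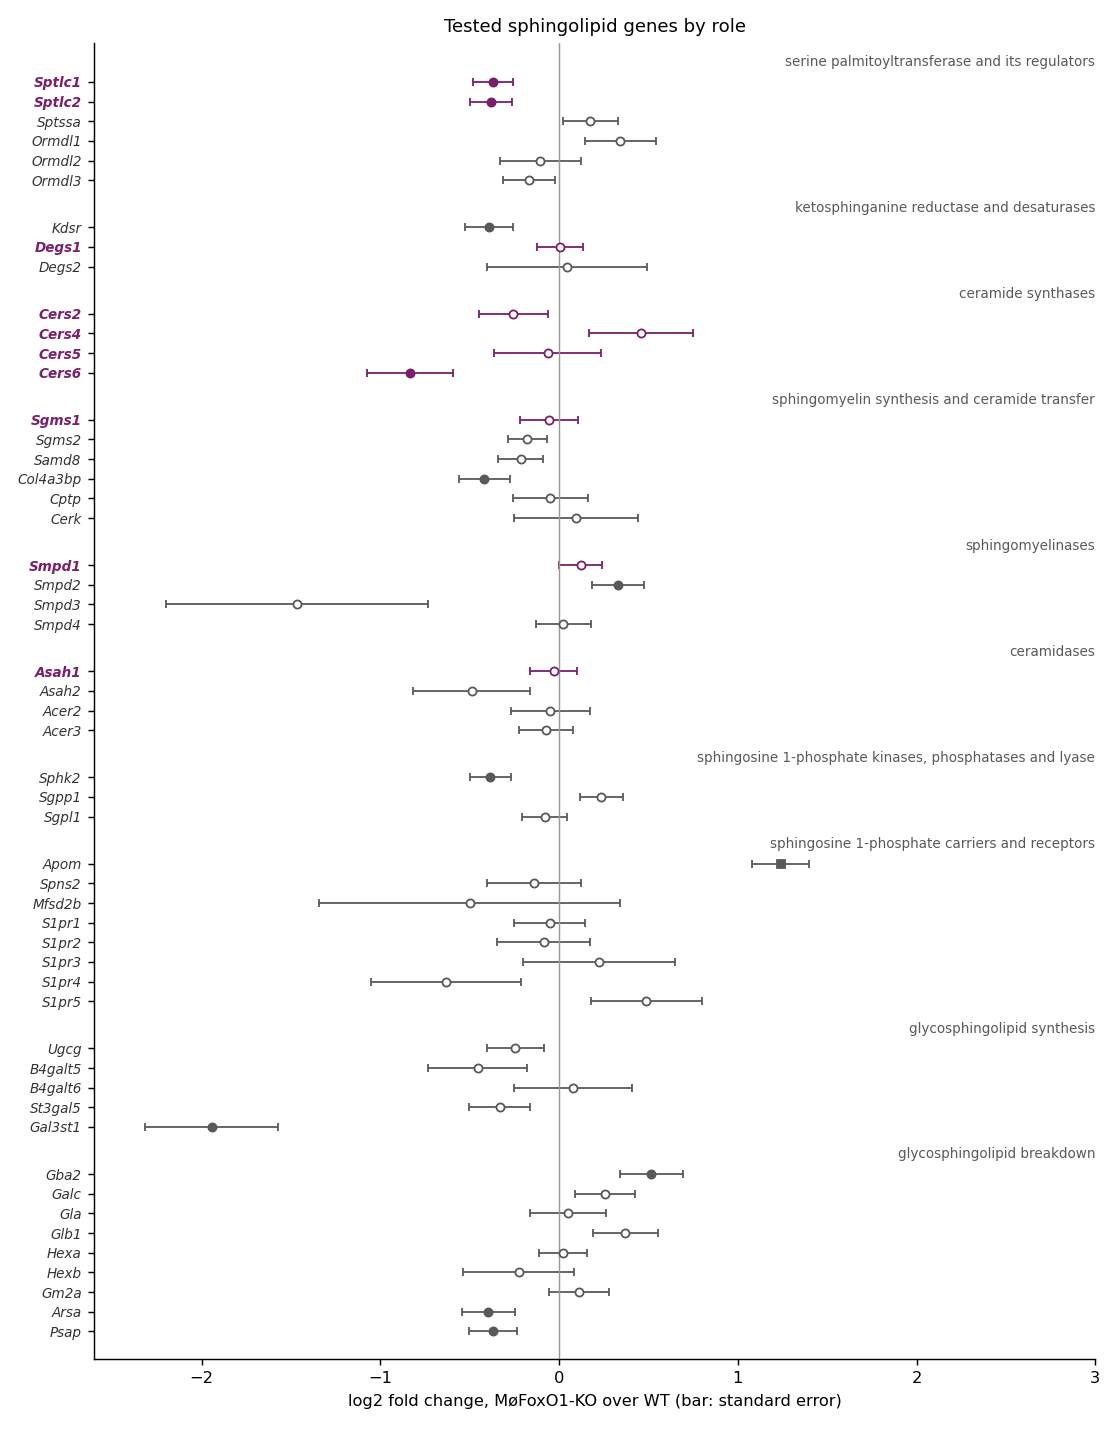
Log2 fold change of MøFoxO1-KO over WT livers (x axis, bar giving the standard error) for the 52 tested sphingolipid genes, grouped by role, with members in purple, filled symbols for an unadjusted P under 0.05 and a square for an adjusted P under 0.05 (edgeR). Apom at 1.24 is the only square, Gal3st1 at -1.94 has the lowest estimate, and Sptlc1, Sptlc2 and Cers6 are the filled members.

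**Figure D5:**
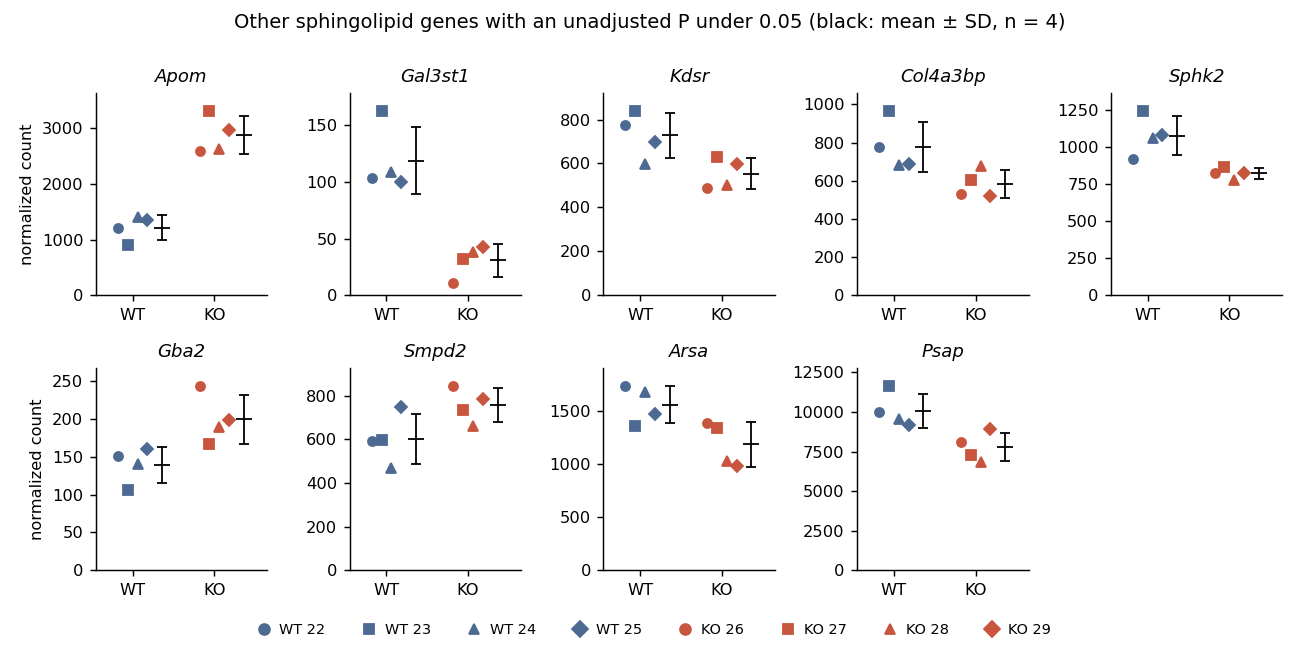
Normalized counts (y axis, from 0) in each WT (blue) and MøFoxO1-KO (KO, red) liver of the 9 listed sphingolipid genes outside the members with an unadjusted P under 0.05 (edgeR), with the marker shape giving the replicate and the black bar the mean ± SD (n = 4). KO values lie wholly above WT for Apom and Gba2 and wholly below for Gal3st1, Col4a3bp, Sphk2 and Psap, and the ranges overlap for Kdsr, Smpd2 and Arsa.

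Markers of other cell types were read in the same livers, and among all of them Gpnmb alone had an adjusted P under 0.05 (edgeR). With DESeq2, 4 of 12 macrophage, 1 of 8 hepatocyte and 1 of 6 stellate cell and fibroblast markers passed that limit. It was passed by 4.02% of all genes to which DESeq2 gave an adjusted P. Of 12 macrophage markers 10 had higher and 2 lower estimates in MøFoxO1-KO livers, and their summed normalized counts ranged from 3657 to 5083 in WT and 3889 to 15571 in MøFoxO1-KO livers. Adgre1 had 80.4, 77.5, 143 and 70.5 in WT livers and 139.7, 251, 69.1 and 303 in MøFoxO1-KO livers, and Clec4f, a Kupffer cell marker, 1507, 798, 936 and 1282 and 1049, 1765, 1169.6 and 3180.4. The macrophage sums of MøFoxO1-KO replicates 26, 27, 28 and 29 were 5966, 10858, 3889 and 15571. At an unadjusted P under 0.05 (edgeR), 6 of the 12 had higher values (8.65% of all tested genes did) and 2 had lower values (8.06%). Timd4 and Marco were among the higher ones, with log2 fold changes of 2.08 and 5.18 (edgeR, adjusted P = 0.0968 and 0.0870). Their adjusted P were 1.59e-04 and 4.99e-04 with DESeq2 and 0.208 and 0.286 with limma-voom. Marco had 18.7, 4.91, 81.0 and 49.7 normalized counts in WT livers and 736, 2707, 66.3 and 2115 in MøFoxO1-KO livers. MøFoxO1-KO replicate 28 thus lay within the WT range of Marco. Gpnmb, a marker of lipid-laden macrophages, fell by 4.13 on the log2 scale (edgeR, adjusted P = 0.0382). That call was lost with limma-voom (adjusted P = 0.138) and whenever 1 mouse other than MøFoxO1-KO replicate 28 was left out (edgeR, adjusted P up to 0.156). All 6 endothelial markers had higher estimates, with sums of 1529.7 to 3346 and 2687 to 3979. Of 6 stellate cell and fibroblast markers 4 had lower estimates, with sums of 3754 to 5899 and 4076 to 6792. All 4 cholangiocyte markers had lower estimates (169 to 211 and 134 to 181). Of 8 hepatocyte markers 6 had higher estimates. The summed counts of all 8 were 6.11 to 8.77% of the effective library size in WT and 7.17 to 10.7% in MøFoxO1-KO livers. Sums for neutrophils and monocytes (88.3 to 288 and 84.2 to 313, with Ly6g at or near 0), T and NK cells (30.8 to 84.1 and 61.2 to 127) and B and plasma cells (37.3 to 274 and 172 to 502) were small. The part of cell composition in the values of Cers6, Sptlc1, Sptlc2 and Apom was not tested.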

How the data were processed

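Liver RNA from 4 MøFoxO1-KO and 4 WT mice was enriched for polyadenylated RNA and sequenced with a kit that does not keep strand. The counts per gene were deposited by the authors as 1 table without normalization. The submitters' processing notes name STAR, featureCounts and mm10, without versions. The strand setting is not given in the sources used here, so reads of overlapping genes cannot be told apart. Gene symbols were taken from GENCODE M21 (46005 of 46517 genes).

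Counts were filtered with filterByExpr (minimum count 10, minimum total 15), which left 13278 genes. Library sizes were scaled by TMM, and edgeR 4.0.16 (R 4.3.3) compared the genotypes by its quasi-likelihood test with no covariate. P values were adjusted by Benjamini-Hochberg over all tested genes. Standard errors are the absolute log2 fold change divided by the square root of F. Exact permutation tests, two-sided, were run on normalized counts. RPKM were computed from the counts, the effective library sizes and the summed exon lengths in the table. Likeness to Cers6 was measured in log2 CPM with a prior count of 2. P values of the model fits set the difference between the genotypes against the spread between mice of the same genotype.

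Between 15253218 and 18025481 counts per mouse limit precision for genes with few counts, such as Cers4 and Cers5. The alternatives were DESeq2 1.42.0, limma-voom (limma 3.58.1), DESeq2 size factors, upper-quartile normalization, no filter, at least 10 counts in every mouse, the robust fit and leaving out each mouse in turn. Scaling by library size alone was chosen after seeing the data. The members and gene lists were chosen with earlier results of these data known. 1 further sphingolipid gene was left out of the lists, their counts and the figures and is not reported here. Genes are named in the text if they are members, Foxo1, sphingolipid genes with an unadjusted P under 0.05 or groups without overlap, the gene of highest level per length in each role list, the 5 genes nearest to Cers6, or listed markers. Sptssa, Ormdl1, Ugcg, Setdb1, Mical1, Dbp, Rpl18, Creb3, Rgp1, C230037L18Rik, Gpnmb, Timd4, Marco and the genes too low to be tested were named after their values were seen.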

Additional observations from a re-analysis of the deposited data

Results flagged for a closer look

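In 2 of 48 groups of 4 mice examined (24 genes in both genotypes), 1 mouse stood apart from the others by Dixon's gap test, in which the distance to the nearest mouse is divided by the range of the group, and chance gives about 5% of groups. In Cers5 the ratio was 0.882 in WT livers, where replicate 23 had 25.5 normalized counts against 56.6 to 60.8 in the other 3. In Gal3st1 the ratio was 0.851 in WT livers, where replicate 23 had 162 against 99.3 to 109. Both gaps belong to the same mouse, which also had the lowest endothelial marker sum. The part of its cell composition in these values was not tested. Without it, Gal3st1 had a log2 fold change of -1.76 (edgeR, adjusted P = 0.134).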

How the results depend on the processing

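Of the log2 fold changes of 24 named genes under up to 16 alternatives, 351 values kept their direction and their side of an adjusted P of 0.05, 16 changed sign, 4 gained the call (Cers6 with DESeq2, and Gal3st1 with DESeq2, library size alone and no filter on low counts) and 12 lost it (4 for Apom and 8 for Gpnmb). Gpnmb has no value at 10 counts in every mouse. The members called at an adjusted P under 0.05 went from 0 to 1 with DESeq2 (Cers6), and 3 members had an unadjusted P under 0.05 in every alternative except library size alone, with 4. The sphingolipid genes called went from 1 to 3 with DESeq2, to 2 with library size alone and to 2 with no filter on low counts, and ranged from 0 to 1 on leaving out a mouse. The count at an unadjusted P under 0.05 lay between 10 and 15, against 12. All 16 changes of sign fell on 5 members without a call (Degs1, Smpd1, Cers5, Asah1 and Sgms1). Degs1 turned to -0.16 with library size alone, -0.0068 with limma-voom and -0.0097 with no filter, and ranged from -0.061 to 0.11 on leaving out a mouse. Smpd1 turned to -0.023 with library size alone. On leaving out a mouse Cers5 ranged from -0.28 to 0.037, Asah1 from -0.15 to 0.049 and Sgms1 from -0.17 to 0.084. Library size alone moved the median of all tested genes by -0.15, and the members' median to -0.23. Cers6 ranged from -1.08 to -0.70 on leaving out a mouse (edgeR, adjusted P 0.0902 to 0.395), Sptlc1 from -0.42 to -0.29 and Sptlc2 from -0.43 to -0.33. Kdsr, Col4a3bp, Sphk2 and Psap also had their highest value in WT replicate 23. Without it their log2 fold changes were -0.32, -0.30, -0.31 and -0.29. The cause of these shifts was not tested. No paired analysis was run because the sample labels name no litter or other pairing of the mice.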

Other observations

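Smpd3, the neutral sphingomyelinase of the Golgi and plasma membrane, had 99.1, 314, 33.2 and 21.9 normalized counts in WT livers and 61.2, 23.8, 35.0 and 48.0 in MøFoxO1-KO livers, a log2 fold change of -1.47 (SE 0.73, edgeR, adjusted P = 0.349). WT replicates 23 and 22 were the highest and WT replicate 25 the lowest of all livers, and leaving WT replicate 23 out moved the log2 fold change to -0.29. Asah2, the neutral ceramidase, likewise had its highest value in WT replicate 23, with 353, 607, 210.0 and 229 and 324, 201, 277 and 192 (log2 fold change -0.49, SE 0.33, and -0.08 without that replicate). Among the receptors of sphingosine 1-phosphate, S1pr1 was the most abundant, with 761, 1070.5, 752 and 862 and 1155, 824, 599 and 744, and the groups overlapped. Npc1, which exports cholesterol from lysosomes, was the 1 of 16 other lysosomal genes with an unadjusted P under 0.05, at 2126, 2424, 2349 and 1416 and 1584, 1357, 1645 and 1511 (log2 fold change -0.45, SE 0.17, edgeR, adjusted P = 0.234). These genes were chosen after their values were seen.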
